A study of Mus musculus with 5 samples.

Results

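Interferon-stimulated genes were examined in 5 RNA-seq libraries of mouse thyroid tumor cells. The group is a list of 38 genes given by symbol, not by level, and each was found through its NCBI gene number among 17923 genes listed in at least 1 library. All tumors carried BRAFV600E. The BVE-Ctnnb1wt group held 2 libraries with 1 line name at passage 20, of which replicate 1 was labelled no TSH and replicate 2 TSH (thyrotropin, the pituitary hormone that stimulates the thyroid). The BVE-Ctnnb1null group, whose genotype label adds a deletion of CTNNB1 (the gene of β-catenin), held 3 libraries with a line name each. These were BVECTN_4 at passage 8 without TSH (replicate 1), BVECTN_4A at passage 11 (replicate 2) and BVECTN_5 at passage 7 (replicate 3), and the names of the last pair do not mention TSH. The protocol text instead gives about 25 passages for wt and 20 for null, and a medium with 4 mU/mL bovine TSH. Genotype cannot be told apart from line or passage, so p-values measure the spread between these libraries. The study speaks of biological replicates, more of them for wt than are analysed here, and of lines set up from tumors of donor mice, but no source used here ties a library to an animal. The driver of the mutations and the age and strain of the donor mice were not given in the sources used here.

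Each library held between 29360002 and 30713079 estimated counts, and a count of 0 allows up to 3 counts, equal to 0.099, 0.098, 0.1, 0.102 and 0.102 CPM (library-scaled counts) in wt replicates 1 and 2 and null replicates 1, 2 and 3. This limit covers counting error only. Below, 5 values of a gene are given in that order of libraries. Levels are FPKM, the length-scaled values of the authors, summed per gene. Ctnnb1 had an FPKM of 59.29 and 73.75 in wt and of 124.58, 196.26 and 117.82 in null. In FPKM it was higher in every library labelled null, so its RNA goes against the labels, although transcript totals cannot single out the deleted exons. In TMM-scaled CPM (CPM after scaling with TMM factors, which balance library composition) the groups overlapped for Ctnnb1, at 251 and 356 in wt and 418, 572 and 344 in null. Directions below are therefore those of the libraries labelled BVE-Ctnnb1null.

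The cell type in the labels, thyroid epithelial cells, was checked with marker genes. The keratin genes Krt8 and Krt18, expressed by simple epithelia, reached at least 201.48 and 320.53 FPKM in all 5 libraries. Of the follicular markers, Foxe1, Duox2 and Slc26a4 stayed at or under 0.09 FPKM in every library, and thyroglobulin (Tg) at or under 0.86. Slc5a5, the gene of the iodide transporter, had 1.03, 0.36, 6.48, 0.05 and 0.14 FPKM, with null replicate 1 the highest. The thyroid transcription factor gene Nkx2-1 had 9.21, 15.02, 9.26, 34.83 and 0.26 FPKM, and Pax8 0.40, 0.17, 18.15, 12.78 and 2.56 FPKM. The lines thus differed in their thyroid identity markers, also within the null group. Epcam and Cdh1, the genes of epithelial adhesion proteins, had 152.05 and 135.74 FPKM in null replicate 1 and were listed at 0 in null replicate 2. Of the 8 fibroblast genes, Dcn (84.66 FPKM), Postn (101.56 FPKM) and Thy1 (88.47 FPKM) were above 1 FPKM in null replicate 3 alone. The collagen genes Col1a1, Col1a2 and Col3a1 and the receptor gene Pdgfra were also expressed in both wt libraries and null replicate 2. Col1a1 had 161.02, 118.44, 1.11, 104.06 and 570.48 FPKM, and Lum stayed at or under 0.14 in every library.

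Interferons are secreted signals that cells release after sensing viral nucleic acid or other danger. Type I and type III interferons act through receptor-bound JAK kinases on a complex with STAT2 and IRF9 that binds the interferon-stimulated response element (ISRE), while interferon-γ signals to genes with a gamma-activated site (GAS). The genes switched on in this way encode antiviral enzymes, nucleic acid sensors, GTPases and further transcription factors, and many tumor cells keep some of them on without added interferon.

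The control regions of the genes are shown first, because ISRE and GAS letters are the elements through which interferons act. RefSeq promoter windows of GRCm38.p6, from 250 bases before to 50 bases after a start site, were found for 30 of the 38 genes. On either strand, the ISRE core (GAAA, any 2 bases and GAAA again) was in a window of 17 of these 30 genes (56.7%), against 3.99% of 27025 genes with a window. The GAS motif TTCNNNGAA, which reads the same on both strands, was in 10 of the 30 (33.3%) against 9.55% of all. Bst2, Eif2ak2, Gbp7, Igtp, Irgm2 and Oas1a held both. A match describes the letters and is not a binding site. The 150 bases before the start are printed for the 5 genes with the highest FPKM among those with an ISRE core, with the core in capitals, and for Irf1 with its GAS in capitals (Irf1 was added after its values were seen). Each is written 5′ to 3′ on the strand of its gene.
Bst2, chr8:71537473-71537622, minus strand: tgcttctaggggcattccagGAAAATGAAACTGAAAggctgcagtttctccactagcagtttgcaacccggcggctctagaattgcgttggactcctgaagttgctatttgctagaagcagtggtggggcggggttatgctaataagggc
Irgm1, chr11:48871421-48871570, minus strand: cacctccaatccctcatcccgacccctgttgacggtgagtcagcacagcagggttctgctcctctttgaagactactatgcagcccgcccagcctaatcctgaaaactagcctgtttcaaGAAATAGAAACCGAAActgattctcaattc
Isg15, chr4:156200819-156200968, minus strand: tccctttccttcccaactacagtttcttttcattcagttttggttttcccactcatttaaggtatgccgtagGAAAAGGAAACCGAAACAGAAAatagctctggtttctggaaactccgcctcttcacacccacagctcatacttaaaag
Gbp2, chr3:142620513-142620662, plus strand: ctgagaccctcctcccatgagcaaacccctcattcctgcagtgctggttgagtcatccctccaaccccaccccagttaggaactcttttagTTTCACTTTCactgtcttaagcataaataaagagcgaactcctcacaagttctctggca
Oas1a, chr5:120907526-120907675, minus strand: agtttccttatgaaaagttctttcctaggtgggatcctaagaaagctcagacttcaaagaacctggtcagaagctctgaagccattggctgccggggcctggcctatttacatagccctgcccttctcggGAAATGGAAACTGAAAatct
Irf1, chr11:53769864-53770013, plus strand: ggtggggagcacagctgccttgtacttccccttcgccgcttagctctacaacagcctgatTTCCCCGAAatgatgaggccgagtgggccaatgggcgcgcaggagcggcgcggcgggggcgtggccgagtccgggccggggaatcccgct
The cores overlapped in Bst2, Irgm1, Isg15 and Oas1a, so that consecutive copies share GAAA. Isg15 held 3 such copies, Bst2, Irgm1 and Oas1a held 2 each, and Gbp2 held 1, on the other strand. The cores lay between 130 bases (Bst2) and 14 bases (the nearer copy of Oas1a) before the start, counted from their first base. The windows of Irf9, Irf7, Trim25, Oasl1, Xaf1, Oasl2, Dtx3l, Ifi44 and Cmpk2 held neither motif.

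Most interferon-stimulated genes were expressed at a low level in all lines, and a few were abundant. The highest FPKM in any library was under 1 for 10 of the 38 genes, between 1 and 10 for 20, and 10 or more for 8. The 8 were Bst2, Irf1, Ifi35, Irgm1, Samhd1, Isg15, Irf9 and Gbp2, and Bst2 alone passed 100 FPKM. The summed FPKM of the group was 275, 292, 224, 198 and 303. All FPKM of a library also summed to less in null, and as a share of that total the group made up 0.0371%, 0.0378%, 0.0383%, 0.034% and 0.0487%, so that null replicate 1 was below wt in the sum and above it in the share. Bst2, the gene of tetherin, a membrane protein that holds budding virus particles at the cell surface, made up between 31.9% and 44.9% of that sum. Fewer cells expressing a gene and less RNA per cell cannot be told apart in such bulk samples. At least 1 FPKM was reached by 21, 22, 19, 21 and 27 of the genes. These were 55.3%, 57.9%, 50%, 55.3% and 71.1% of the 38, against 52.2%, 50.4%, 58.3%, 58.8% and 60.4% of all listed genes. The share was thus a little above that of all genes in both wt libraries, more so in null replicate 3, and a little below it in the other null libraries. Each of these differences rests on few of the 38 genes and was not tested.

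**Figure D1:**
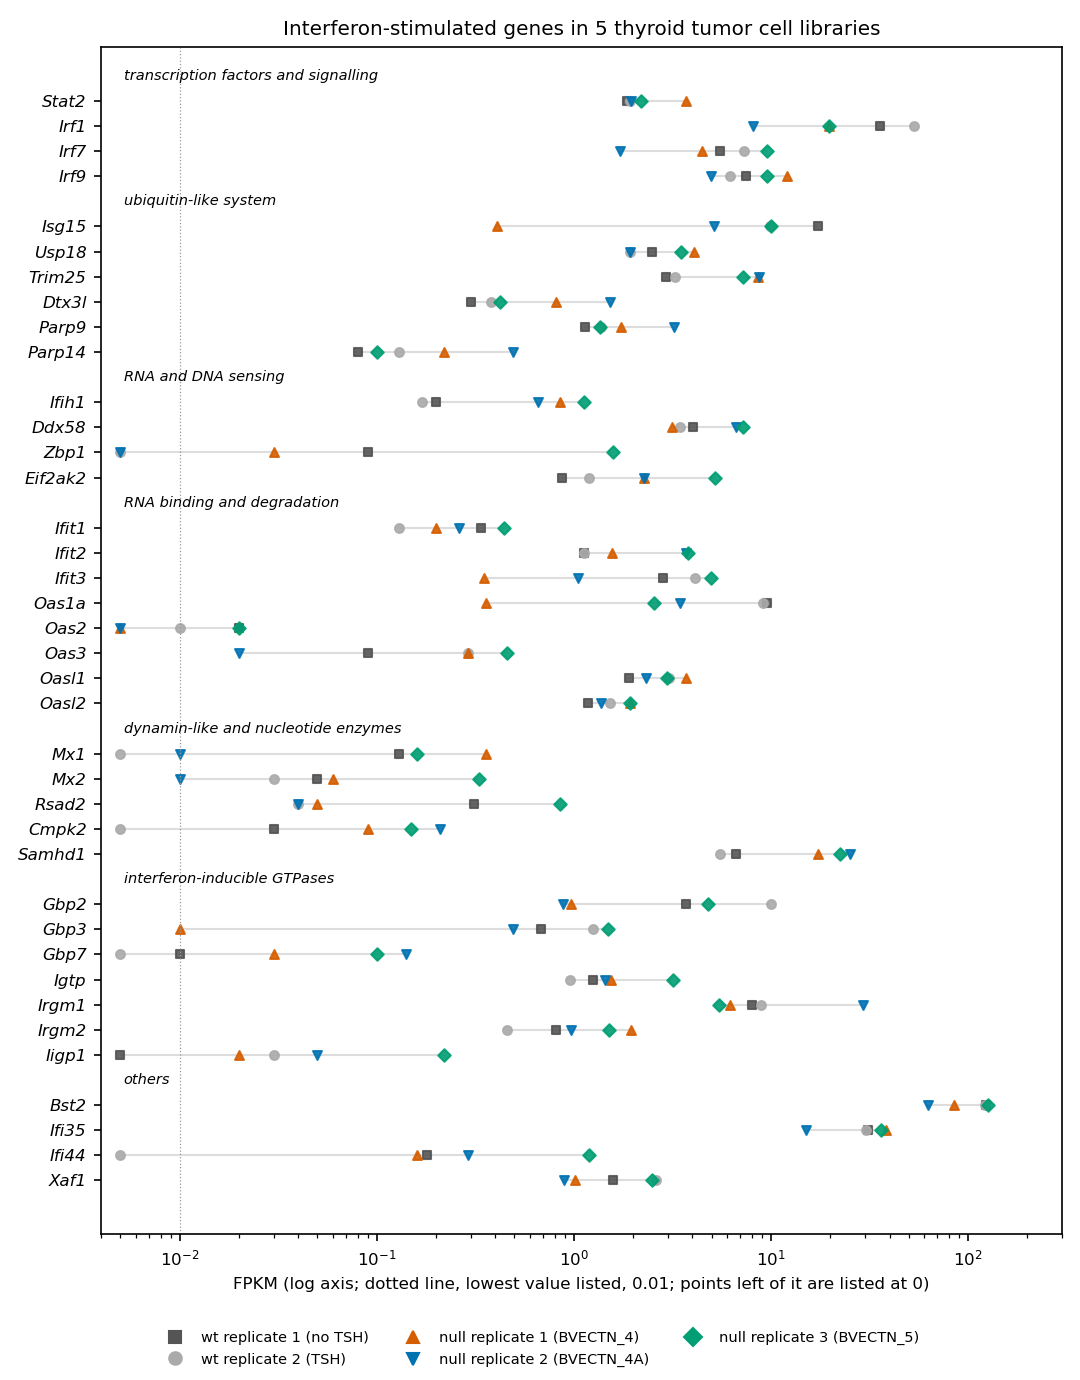
FPKM (log axis) of the 38 interferon-stimulated genes in the 5 libraries, grouped by role; each symbol is 1 library and the line joins the lowest and highest. Bst2 lies between 62.94 and 126.68 FPKM, while 10 genes stay under 1 FPKM in every library.

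The question the study put to these libraries was which genes could take part in the loss of transplanted null cells. The comparison here used edgeR's quasi-likelihood test on the summed counts, scaled with TMM factors, over 13240 genes. Of the 38 genes 34 passed its filter on low counts, and Zbp1, Oas2, Mx2 and Iigp1 did not. At a Benjamini-Hochberg adjusted p under 0.05, edgeR called 0 of the 34, as it did of all genes tested (0.0%), and its lowest adjusted p in the group was 0.191, for Irf1. At an unadjusted p under 0.05, 1 of the 34 was higher in null (Samhd1; 2.94%, against 12.4% of all genes) and 3 were lower (Irf1, Oas1a and Gbp2; 8.82%, against 6.07%). Leaving out wt replicate 2 left 0 of 37 in either direction, where 2.2% of all genes were higher and 2.02% lower. Leaving out null replicate 3 left 1 of 31 higher and 5 lower (11.3% and 6.95% of all genes). Leaving out null replicate 1 left 2 of 34 higher and 3 lower (16.1% and 11.5%). DESeq2 called 0 of the 34 higher, where it called 8.48% of 13128 genes, and 2 lower (Irf1 and Oas1a), where it called 3.71%. With limma on log2(FPKM + 0.1), 0 of the 26 genes that passed its own filter were called at a Benjamini-Hochberg adjusted p under 0.05, with 3 higher and 2 lower at an unadjusted p under 0.05 (19.1% and 2.79% of 11888 genes).

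For the 34 genes the median log2 fold change was -0.02, and that of all 13240 genes was 0.29, so that 14 of the 34 lay above and 20 below the median gene. The scaling sets this zero. Without TMM factors the same medians were 0.56 and 0.87, and on log2(FPKM + 0.1) they were 0.31 over 26 genes and 0.61 over 11888. In each of the 14 alternatives tried, the median of the group minus that of all genes lay between -0.47 and -0.22. In FPKM, all null libraries exceeded both wt libraries for 11 of the 34 (32.4%, against 35.9% of all genes) and below both for 2 (5.88%, against 7.22%). In TMM-scaled CPM, the null libraries were all above for 6 (17.6%, against 22.6%) and all below for 6 (17.6%, against 17.3%). These shares were near those of all genes. Cmpk2 and Gbp7, counted as above wt on both scales, had at most 3 counts in each wt library. They passed the filter on low counts through the null libraries.

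**Figure D2:**
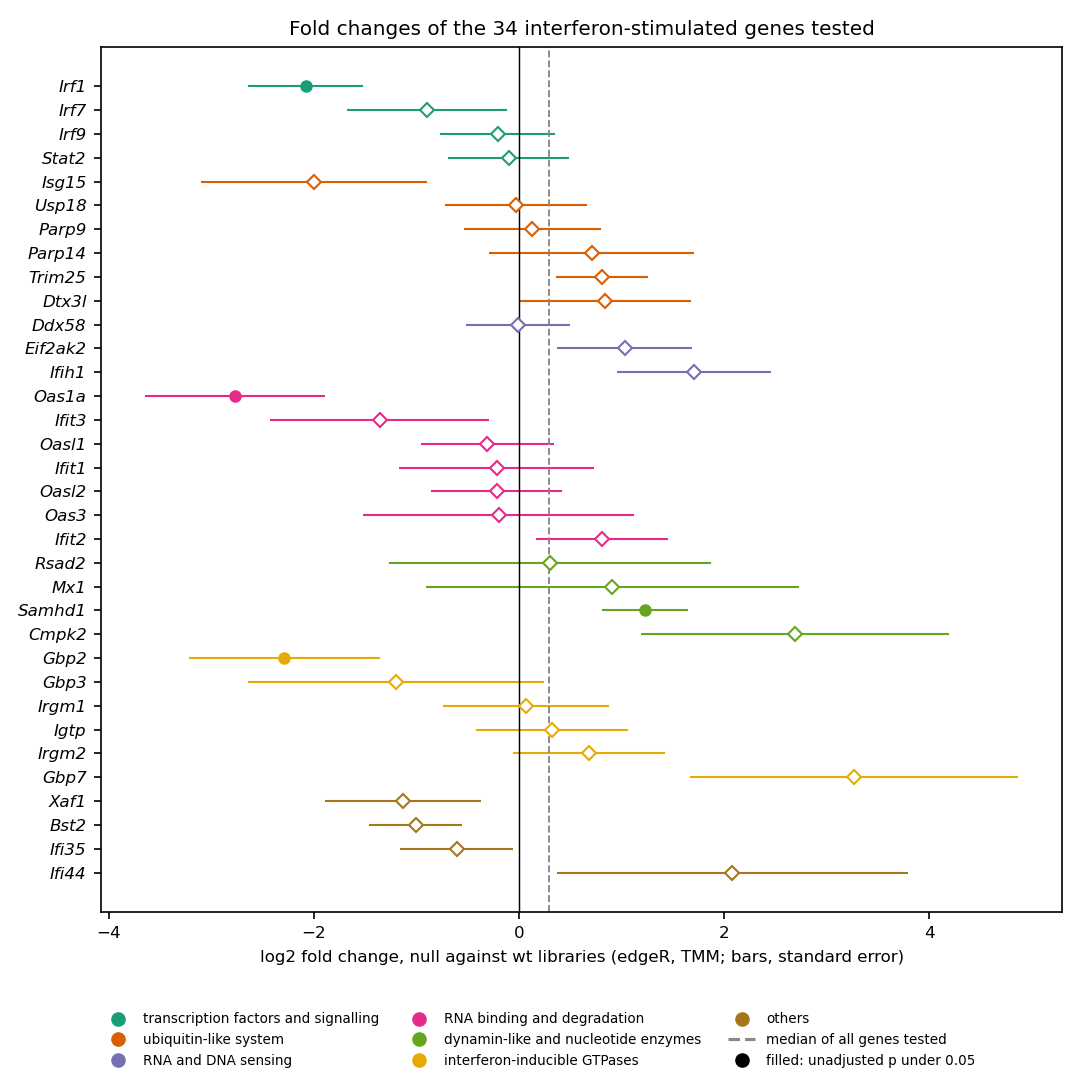
log2 fold change (null against wt, edgeR with TMM factors) of the 34 genes tested, with bars for 1 standard error on each side, by role; filled symbols have an unadjusted p under 0.05 and the dashed line is the median of all genes tested, 0.29. The filled symbols are Irf1, Oas1a and Gbp2 to the left and Samhd1 to the right.

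Among the transcription factors, Irf1 differed most. Irf1 activates many interferon-γ target genes and is itself induced by interferon-γ. Its FPKM was 35.59 and 53.46 in wt and 19.69, 8.15 and 19.64 in null, or 44.5 ± 12.6 (SD, n = 2) against 15.8 ± 6.65 (SD, n = 3). Both wt libraries were above every null library, and null replicate 2 was the lowest. For Irf1 in null against wt, edgeR's log2 fold change was -2.08 (SE, the standard error, 0.56; adjusted p = 0.191 by Benjamini-Hochberg in edgeR's quasi-likelihood test). The two-sided exact permutation test of the libraries gave p = 0.1, the smallest that 2 against 3 allow, so this test cannot reach 0.05 for any gene here. DESeq2 called Irf1 lower (Benjamini-Hochberg adjusted p = 0.0136), and the adjusted p ranged from 0.0136 to 0.841 over its alternatives. Its log2 fold change stayed between -2.5 and -1.5 in all of them.

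The other transcription factors overlapped between the groups or nearly so. Irf7, the factor that amplifies type I interferon genes, had an FPKM of 5.52 and 7.34 in wt and 4.46, 1.72 and 9.54 in null (log2 fold change -0.90, SE 0.78, and -1.65 without null replicate 3 or -0.56 without null replicate 2). Irf9, the DNA-binding subunit of the ISRE-binding complex, had 7.48 and 6.22 in wt and 12.12, 4.95 and 9.54 FPKM in null. For both genes the null libraries lay on either side of the wt libraries, with null replicate 2 the lowest of all. Stat2, which joins Irf9 in that complex, had 1.87 and 1.92 FPKM in wt and 3.69, 1.95 and 2.20 in null. Null replicate 1 stood above the others for Stat2, and null replicate 2 was level with wt. The log2 fold changes of Irf9 (-0.21) and Stat2 (-0.10) were within 1 standard error of 0, and both had the other sign on every FPKM scale and without TMM factors.

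The 6 genes of the ubiquitin-like system were all tested, and 0 had an unadjusted p under 0.05. Isg15, the ubiquitin-like modifier itself, had 17.33 and 9.90 FPKM in wt and 0.41, 5.14 and 9.96 in null. Null replicate 1, with 9 counts against 390 and 225 in wt, was far below the other 4 libraries, and null replicate 3 was level with wt replicate 2 in FPKM, while all null libraries were below wt in TMM-scaled CPM. Isg15 had a log2 fold change of -2.00 (SE 1.10, adjusted p = 0.363 by Benjamini-Hochberg in edgeR), which ranged from -2.91 (without null replicate 3) to -1.5 (without null replicate 1) when 1 library was left out. Trim25, a ubiquitin ligase that activates the RNA sensor RIG-I, had 2.93 and 3.26 FPKM in wt and 8.61, 8.69 and 7.18 in null. All null libraries were above wt, with a mean of 8.16 ± 0.850 (SD, n = 3) against 3.09 ± 0.233 (SD, n = 2). After TMM scaling Trim25 had a log2 fold change of 0.81 (SE 0.45, adjusted p = 0.366 by Benjamini-Hochberg in edgeR; exact permutation p = 0.1). Usp18, the protease that removes Isg15 and restrains the type I receptor, had between 1.93 and 4.09 FPKM, with both groups overlapping. Dtx3l and Parp9, which encode a ubiquitin ligase and its partner, and Parp14, an ADP-ribosyltransferase gene, each had their highest FPKM in null replicate 2, at 1.52, 3.22 and 0.49. Dtx3l and Parp9 overlap in the genome, and the strand setting is unknown, so reads from the shared stretch may not be told apart.

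Of the 4 sensor genes, 3 were tested and none had an unadjusted p under 0.05. Ifih1, the gene of the long double-stranded RNA sensor MDA5, had 0.20 and 0.17 FPKM in wt and 0.85, 0.66 and 1.13 in null. Eif2ak2, the gene of the kinase PKR that stops translation on double-stranded RNA, had 0.87 and 1.2 in wt and 2.26, 2.28 and 5.21 FPKM in null. For both genes the null libraries all exceeded wt on both scales, as they did for 35.9% of all genes in FPKM and 22.6% in TMM-scaled CPM, and null replicate 3 was the highest. Ifih1 had a log2 fold change of 1.71 (SE 0.75, adjusted p = 0.283 by Benjamini-Hochberg in edgeR) and Eif2ak2 one of 1.03 (SE 0.66, adjusted p = 0.427 in the same edgeR test), which was 0.50 without null replicate 3 and 0.67 without wt replicate 1. Ddx58, the gene of RIG-I, had 4.03 and 3.46 FPKM in wt and 3.16, 6.65 and 7.18 in null, and its log2 fold change of -0.01 changed sign with the scaling. Zbp1, a sensor of Z-form nucleic acid, stood out in 1 library. Its counts were 2 and 0 in wt and 2, 0 and 41 in null, so that null replicate 3 alone was above 3 counts.

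Of the genes that bind or degrade RNA, Oas1a was below wt in every null library and the rest were mixed. Oas1a makes the oligoadenylates that activate RNase L. Its FPKM was 9.52 and 9.16 in wt and 0.36, 3.46 and 2.54 in null, or 9.34 ± 0.255 (SD, n = 2) against 2.12 ± 1.59 (SD, n = 3). No null library reached the wt level, and null replicate 1 had 20 counts against 552 and 536. Oas1a had a log2 fold change of -2.77 (SE 0.88, adjusted p = 0.206 by Benjamini-Hochberg in edgeR), and the exact permutation test gave p = 0.2. DESeq2 called Oas1a lower (Benjamini-Hochberg adjusted p = 0.023), with a range from 0.023 to 0.841 over its alternatives. Reads of Oas1a could be divided with its near copies. Of these Oas1g had 1.73 and 0.54 FPKM in wt and 0.08, 0.60 and 0.14 in null, with null replicate 2 between the wt libraries.

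Ifit1, Ifit2 and Ifit3 encode related antiviral proteins, of which that of Ifit1 binds foreign RNA ends. Ifit3 had 2.82 and 4.10 FPKM in wt and 0.35, 1.05 and 4.94 in null. Ifit2 had 1.13 and 1.12 in wt and 1.56, 3.69 and 3.79 FPKM in null. Null replicate 3 was thus the highest library for both, while null replicate 1 was the lowest for Ifit3 and just above wt for Ifit2. Ifit1 stayed at or under 0.44 FPKM. Oasl1 and Oasl2, relatives of the Oas enzymes, ranged from 1.90 to 3.71 and from 1.18 to 1.93 FPKM with overlapping groups, and Oas3 stayed at or under 0.46 FPKM. Oas2 was at or under 2 counts in every library. Ifit1 overlaps Ifit1bl1 in the annotation, and the Ifit genes have near copies, so their division is uncertain.

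Samhd1 was the gene of the group that was higher in null at an unadjusted p under 0.05. It encodes an enzyme that degrades the nucleotides needed for reverse transcription. Its FPKM was 6.65 and 5.52 in wt and 17.32, 25.18 and 22.54 in null, or 6.08 ± 0.799 (SD, n = 2) against 21.7 ± 4.0 (SD, n = 3). Both wt libraries were below every null library, and null replicate 2 was the highest. After TMM scaling Samhd1 had a log2 fold change of 1.23 (SE 0.42, adjusted p = 0.219 by Benjamini-Hochberg in edgeR; exact permutation p = 0.1), between 1.06 and 1.82 over the alternatives. Its lowest adjusted p among them was 0.0549. The remaining genes of this class stayed under 1 FPKM in every library. Cmpk2, a nucleotide kinase gene next to Rsad2, had 3 and 0 counts in wt and 9, 20 and 14 in null. Rsad2, the gene of viperin, had 36 and 5 counts in wt and 6, 5 and 96 in null, so 1 library of each group stood out. Mx1 and Mx2 encode dynamin-like antiviral GTPases but are transcribed pseudogenes in the C57BL/6J annotation, and neither passed 30 counts in any library.

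The GTPase genes, which act on vacuoles that hold pathogens, showed no common direction. Gbp2 had 3.69 and 10.06 FPKM in wt and 0.97, 0.88 and 4.82 in null. Null replicate 3 lay between the wt libraries in FPKM, and all null libraries were below both in TMM-scaled CPM. The log2 fold change of Gbp2 was -2.29 (SE 0.93, adjusted p = 0.263 by Benjamini-Hochberg in edgeR), and it was -1.31 without wt replicate 2 and -3.55 without null replicate 3. Irgm1 had 8.03 and 8.91 FPKM in wt and 6.17, 29.45 and 5.48 in null. Null replicate 2 was thus above all others and the other null libraries were below wt, so that a log2 fold change of 0.07 became -1.19 without null replicate 2. Gbp3 had 0.68 and 1.25 in wt and 0.01, 0.49 and 1.49 FPKM in null. Igtp and Irgm2 were higher in every null library in FPKM but not in TMM-scaled CPM. Gbp7 had 2 and 0 counts in wt and 5, 24 and 16 in null, and Iigp1 passed 4 counts in null replicate 3 alone, with 19. The Gbp and Irg families have near copies, and the counting could have divided their reads.

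The last class held Bst2, the most abundant gene of the group, and 3 others. Bst2 had 123.53 and 121.38 FPKM in wt and 85.30, 62.94 and 126.68 in null, so null replicate 3 was level with wt and the other null libraries were below. In TMM-scaled CPM all null libraries were below wt, with 125 and 141 in wt and 66.7, 43.7 and 88.5 in null. Bst2 had a log2 fold change of -1.01 (SE 0.45, adjusted p = 0.291 by Benjamini-Hochberg in edgeR). This was -0.42 without TMM factors and -0.48 with limma on log2(FPKM + 0.1). Ifi35, a partner of other interferon-induced proteins, had 31.14 and 30.41 FPKM in wt and 38.37, 15.04 and 36.12 in null, with null replicate 2 the lowest library. The groups of Ifi35 overlapped in FPKM and all null libraries were below wt in TMM-scaled CPM (log2 fold change -0.61, SE 0.55, adjusted p = 0.565 by Benjamini-Hochberg in edgeR). It was -0.95 without null replicate 1, -0.37 without null replicate 2 and -0.05 without TMM factors. Xaf1, linked to cell death, had between 0.89 and 2.60 FPKM with overlapping groups. Ifi44 had 16 and 0 counts in wt and 14, 25 and 104 in null.

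The null lines differed among themselves across the group. Each was set against the mean of the wt libraries in TMM-scaled CPM, with 0.5 added, for genes with at least 10 counts in either, and the comparisons share the wt libraries. In null replicate 1, 3 of 32 genes were at least 2-fold higher (25.9% of all genes were) and 7 at least 2-fold lower (18.8%). In null replicate 2 these counts were 6 and 13 of 33 (24.9% and 19.8% of all genes), and in null replicate 3 they were 7 and 5 of 37 (26.1% and 18.1%). The medians were 0.01, -0.57 and 0.04, against 0.16, 0.07 and 0.16 for all genes. Of 31 genes with a value in each, Isg15, Irf1, Oas1a and Gbp2 were at least 2-fold lower in all 3 null libraries (12.9%, against 5.21% of all genes), and Samhd1 was at least 2-fold higher in all 3 (3.23%, against 8.04%). The count of 4 rests on the scaling. In null replicate 3 Isg15 was at the limit, with a log2 difference of -1.0, and in FPKM Isg15 (9.96 against a wt mean of 13.6) and Gbp2 (4.82 against 6.88) were less than 2-fold lower there. For Ifit3 these log2 differences were -3.05, -2.09 and -0.13.

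**Figure D3:**
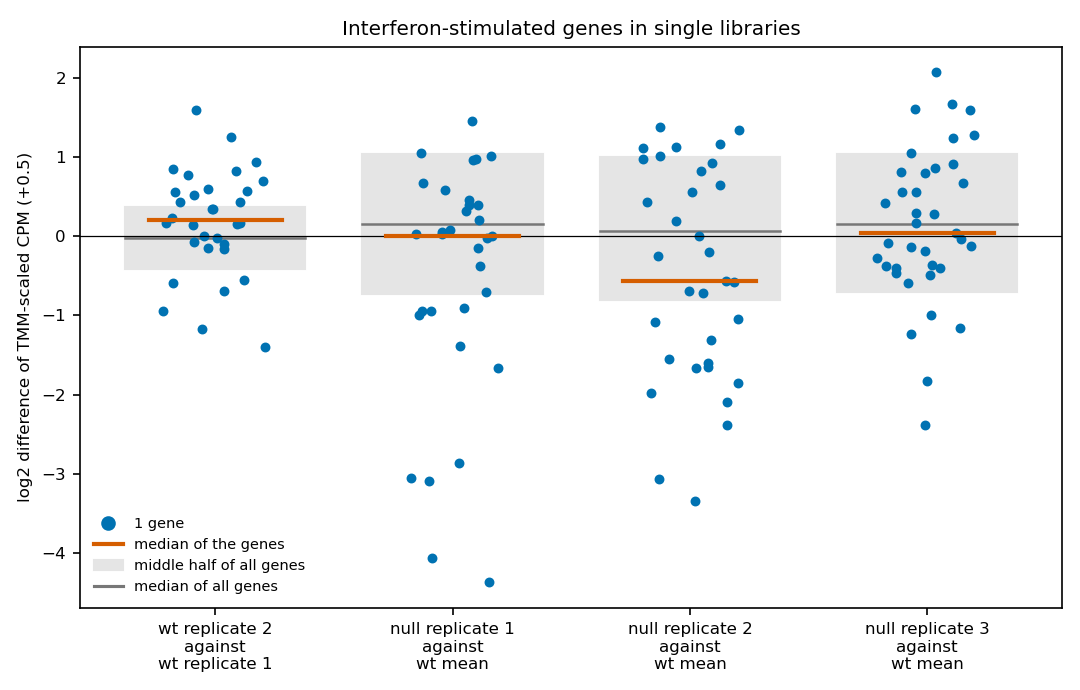
log2 difference of TMM-scaled CPM (0.5 added) between wt replicate 2 and wt replicate 1, and between each null library and the wt mean; each point is 1 interferon-stimulated gene, with its median in orange and the median and quartile range of all genes in grey. The median of null replicate 2 is -0.57, against 0.07 for all genes.

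The null libraries were also set against each other. Against null replicate 1, null replicate 3 was at least 2-fold higher for 12 of 37 genes (32.4%, against 22.2% of all genes) and at least 2-fold lower for 0 (23.6% of all genes). The 12 were Isg15, Ddx58, Zbp1, Eif2ak2, Ifit2, Ifit3, Oas1a, Rsad2, Gbp2, Gbp3, Ifi44 and Xaf1. Against null replicate 2, null replicate 3 was higher for 15 of 37 (18.9% of all genes) and lower for 4, namely Dtx3l, Parp9, Parp14 and Irgm1 (15.1%). Null replicate 2 against null replicate 1 gave 5 higher and 9 lower of 33, with 21.9% and 23.9% of all genes. These are single libraries with no replicate check. Genes with at least 10 counts in either library of a pair were compared, for the group and for all genes. Zbp1 and Rsad2 had 2 and 6 counts in null replicate 1, 0 and 5 in null replicate 2, and 41 and 96 in null replicate 3. Both thus entered through null replicate 3 alone and could not be counted as lower there, as did Mx2, counted against null replicate 2. The 8 fibroblast genes summed to 285, 250, 1.7, 127 and 1390 FPKM, the highest in null replicate 3, with Col1a1 the most abundant gene. The part of other cell types in these differences was not tested. Of the leukocyte genes, Ptprc, Adgre1, Cd3e and Ncr1 were not listed in any library. The list summed to 6.69, 15.8, 60.0, 1.25 and 40.9 FPKM, of which Cd68 alone had 6.09, 14.2, 59.81, 1.0 and 39.91. Csf1r, Itgam, Tyrobp and Fcer1g stayed at or under 0.37 FPKM in every library. Lyz2 had 0.49 and 1.39 FPKM in wt and 0.03, 0.22 and 0.61 in null. Endothelial genes summed to 0.73 FPKM at most, in null replicate 3.

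The wt libraries, whose labels differ in TSH, were close. In TMM-scaled CPM, 2 of 32 interferon-stimulated genes were at least 2-fold higher in the library labelled TSH (Gbp2 and Oas3; 5.37% of all genes were higher) and 2 were lower (Rsad2 and Ifi44; 5.44%). The median difference was 0.20 on the log2 scale, against -0.02 for all genes. With 1 library per condition there is no test. The median ratio of the highest to the lowest TMM-scaled CPM was 1.41 between the wt libraries and 2.37 among the null libraries for 28 interferon-stimulated genes above 3 counts everywhere, against 1.33 and 2.59 for 11635 genes. The wt ratio spans 2 libraries with 1 line name, and the null ratio 3 libraries with a line name each. Such a ratio grows with the number of libraries, so wt and null are not comparable in it.

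A further 70 genes of the pathway were followed from ligand to target, and 61 of them were listed in at least 1 library. Of the 10 interferon genes, 8 (Ifnb1, Ifnk, Ifne, Ifnl3 and 4 Ifna genes) were not listed in any library. Ifng was listed in null replicate 3 alone, at 0.06 FPKM, and Ifnl2 in null replicate 1 alone, at 0.12 FPKM. The ligands were thus at or near 0 in every library. Of the 57 genes tested, edgeR called 0 at a Benjamini-Hochberg adjusted p under 0.05, with 8 higher (14%) and 3 lower (5.26%) at an unadjusted p under 0.05, against 12.4% and 6.07% of all genes. Without TMM factors these counts were 14 and 0 (22.3% and 2.08% of all genes), and without wt replicate 2 they were 0 and 0 (2.2% and 2.02%). DESeq2 called 6 higher (Ifnlr1, Jak2, Irf2, Tlr3, Mavs and Slfn2) and 1 lower (Ifitm1), against 8.48% and 3.71% of all genes. The median log2 fold change of the 57 was 0.01, against 0.29 for all genes.

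All 6 receptor genes were listed in all libraries, and for 4 of them every null library was above wt in FPKM and in TMM-scaled CPM (66.7%, against 35.9% and 22.6% of all genes). Ifnar1, a chain of the type I receptor, had 3.16 and 1.98 FPKM in wt and 5.26, 5.56 and 13.92 in null. Ifnar2, the other chain, had 36.47 and 39.76 FPKM in wt and 29.16, 15.97 and 128.77 in null. Ifngr1, a chain of the interferon-γ receptor, had 5.19 and 4.68 FPKM in wt and 24.22, 10.47 and 16.45 in null. The 4 were Ifnar1, Ifngr1, Ifngr2 and Ifnlr1. For Ifnar2 null replicate 3 stood far above and the other null libraries below wt, and Il10rb also overlapped, with 10.80 and 13.69 FPKM in wt and 15.59, 8.31 and 25.78 in null. The type III receptor chain gene Ifnlr1 had 0.09 and 0.02 FPKM in wt and 4.84, 0.67 and 0.88 in null, with null replicate 1 the highest.

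Downstream of the receptors, the kinase genes Jak1 and Jak2 and the signalling gene Stat3 were above wt in every null library on both scales. They were 3 of the 5 kinase and STAT genes (60%, against 35.9% of all genes in FPKM and 22.6% in TMM-scaled CPM). The kinase gene Tyk2 overlapped between the groups, with 4.78 and 6.06 FPKM in wt and 11.92, 7.11 and 3.43 in null. Jak1, the kinase shared by these receptors, had 5.31 and 6.82 FPKM in wt and 15.86, 28.66 and 34.80 in null (log2 fold change 1.5, SE 0.50, adjusted p = 0.215 by Benjamini-Hochberg in edgeR). Jak2, a kinase of the interferon-γ receptor, had 0.37 and 0.43 in wt and 4.91, 1.44 and 6.85 FPKM in null (2.88, SE 0.84, adjusted p = 0.194 from the same edgeR test).

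Of the 6 inhibitors, Irf2, a repressor that competes with Irf1 for its sites, had the tightest groups. Its FPKM was 2.09 and 1.87 in wt and 9.83, 8.84 and 8.99 in null, or 1.98 ± 0.156 (SD, n = 2) against 9.22 ± 0.534 (SD, n = 3). Irf1 and Irf2 thus stood apart in opposite directions in FPKM and in TMM-scaled CPM. The log2 fold change of Irf2 was 1.64 (SE 0.51, adjusted p = 0.201 by Benjamini-Hochberg in edgeR; exact permutation p = 0.1), and DESeq2 gave an adjusted p = 0.0151 (Benjamini-Hochberg), in a range up to 0.841 over its alternatives. Pias1, which restrains STAT signalling, had 1.64 and 1.42 FPKM in wt and 3.93, 7.13 and 8.40 in null. Socs1 and Socs3, feedback inhibitors of JAK kinases, overlapped between the groups in FPKM.

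Of 13 sensing genes upstream of interferon, 5 were above wt in every null library in FPKM (38.5%, against 35.9% of all genes). Mavs, the mitochondrial adaptor of RIG-I and MDA5, had 3.71 and 2.21 FPKM in wt and 18.77, 9.78 and 16.52 in null (log2 fold change 1.80, SE 0.56, adjusted p = 0.202 by Benjamini-Hochberg in edgeR). Tlr3, the endosomal receptor for double-stranded RNA, had 0.07 and 0.01 in wt and 2.93, 0.54 and 0.37 FPKM in null. Ikbke, a kinase that activates Irf3 and Irf7, had 56.19 FPKM in null replicate 1 and between 1.93 and 3.61 in the other libraries. So 1 library carried Ikbke, while Mavs and Tlr3 were above wt in all 3.

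**Figure D4:**
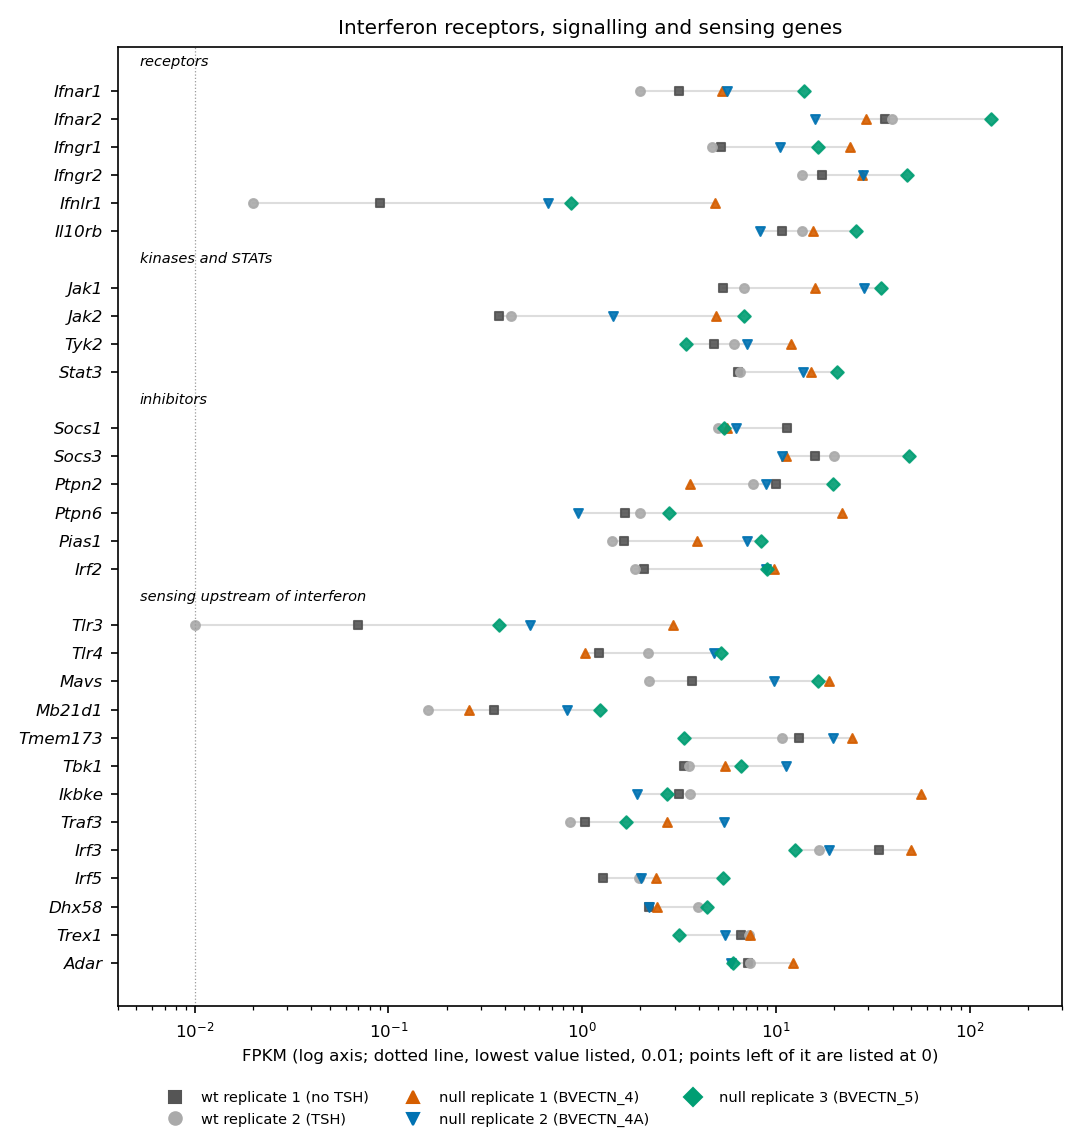
FPKM (log axis) of the receptor, kinase and STAT, inhibitor and sensing genes in the 5 libraries; each symbol is 1 library and the line joins the lowest and highest. The 3 null libraries lie between 8.84 and 9.83 FPKM for Irf2 and above both wt libraries for Jak1, Jak2 and Mavs.

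A further 30 interferon-stimulated genes outside the 38 had a median log2 fold change of -0.25 over the 27 tested, against 0.29 for all genes. At an unadjusted p under 0.05, edgeR gave 1 higher (Slfn2; 3.7%, against 12.4% of all genes) and 3 lower (Ifitm1, Ifi27 and Lgals3bp; 11.1%, against 6.07%). In TMM-scaled CPM, all null libraries were below wt for 10 of the 27 (37.0%, against 17.3% of all genes) and above wt for 3 (11.1%, against 22.6%). In FPKM they were below wt for 4 (14.8%, against 7.22%) and above for 5 (18.5%, against 35.9%). Without TMM factors edgeR gave 2 of the 27 higher and 0 lower at an unadjusted p under 0.05, against 22.3% and 2.08% of all genes. Without null replicate 3 these counts were 2 and 4 of 25 (11.3% and 6.95% of all genes). Fits that kept 1 wt library are not counted for this list. Ifitm1, which blocks virus entry at the membrane, had 5.33 and 16.31 FPKM in wt and 0.30, 0.53 and 3.87 in null. Ifi27, a mitochondrial protein gene, had 158.61 and 111.29 in wt and 10.22, 65.57 and 74.66 FPKM in null. Both were below wt in every null library, and null replicate 1 was the lowest for each. Ifitm3, the most abundant of the 30 in summed level, had 382.28 and 453.88 FPKM in wt and 317.95, 157.51 and 415.46 in null. The groups of Ifitm3 overlapped in FPKM, and in TMM-scaled CPM all null libraries were below wt (log2 fold change -1.08, SE 0.52, adjusted p = 0.31 by Benjamini-Hochberg in edgeR). Slfn2, a gene of the Schlafen family, had 0.52 and 0.51 FPKM in wt and 28, 1.8 and 9.76 in null. Pml, the gene of nuclear bodies, had 6.05 and 6.44 FPKM in wt and 36.99, 27.12 and 9.74 in null, all above wt in FPKM but overlapping after TMM scaling.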

How the data were processed

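RNA of 2 BVE-Ctnnb1wt and 3 BVE-Ctnnb1null libraries was prepared with a TruSeq kit and sequenced on an Illumina HiSeq instrument. For each RefSeq transcript the authors deposited an expected count, which is an estimate and can be fractional, and its FPKM (per length and per library size). The lowest FPKM listed was 0.01, and replicates were not pooled. The aligner, counting program, genome build and strand setting were not given in the sources used here. Total counts per library lay between 29360002 and 30713079.

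Both values were summed per NCBI gene number and counts were rounded. Symbols came from the RefSeq table of GRCm38.p6 (17866 of 17923 genes matched). Groups were compared in R 4.3.3 by edgeR 4.0.16 (TMM, filterByExpr, glmQLFit, glmQLFTest) with Benjamini-Hochberg adjustment over 13240 genes and a threshold of 0.05. The biological coefficient of variation was 0.694. TMM factors were 0.8417 and 0.735 in wt and 1.085, 1.222 and 1.219 in null. Alternatives were DESeq2 1.42.0, no or RLE factors, no filter, a minimum of 10 counts per library, limma-trend (limma 3.58.1) after log2 transformation of the FPKM with 0.1, 0.01 or 1 added (genes reaching 0.5 in 2 libraries or more), omission of single libraries, and a block for the replicate number. The scripts were tested on simulated data. Single genes were compared with exact permutation tests on log2(FPKM + 0.1) (Python 3.11.15, scipy 1.17.1). Promoter windows were searched on both strands.

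The genes and lists were chosen with earlier results of these data known. Every gene of the group could be named by role, as could the 70 pathway genes. Values in every library were given for genes of the group that reached an FPKM of 5 in any library or had an unadjusted p under 0.05. The other genes of the group given in this way, and the pathway genes given singly, were chosen after their values were seen. The marker lists were of thyroid follicular, epithelial, fibroblast, leukocyte and endothelial genes. A few genes of these lists are not reported here, although the counts and sums of the lists include them.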

Additional observations from a re-analysis of the deposited data

How the results depend on the processing

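The calls of this comparison depended on the tool. DESeq2 called 1113 genes higher and 487 lower, and 2 of the interferon-stimulated genes lower, where edgeR called 0 in each case. Without a filter edgeR called 4 genes lower, and with at least 10 counts in every library 1. With limma the calls were 1 higher and 5 lower (FPKM plus 0.1), 1 and 3 (plus 0.01) and 1 and 7 (plus 1), and 0 of the group. The median of the group was 0.56 without TMM factors and 0.33 with limma on FPKM plus 0.01. At an unadjusted p under 0.05, edgeR gave 1646 genes higher and 804 lower, but 2950 and 276 without TMM factors. Of the group it then gave 3 of 34 higher and 1 lower, against 22.3% and 2.08% of all genes.

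Signs changed for genes near 0. Irgm1 was -0.02 with DESeq2 and with RLE factors, and ranged from -1.19 (without null replicate 2) to 0.43 when 1 library was left out, with -0.18 without wt replicate 1. Irf9 was 0.34 without TMM factors and 0.28, 0.28 and 0.26 with limma (plus 0.1, 0.01 and 1), and ranged from -0.62 to 0.00 when 1 library was left out. Ddx58 was 0.59 without TMM factors, 0.01 with at least 10 counts everywhere, and 0.50, 0.51 and 0.43 with limma, and ranged from -0.23 to 0.22 when 1 library was left out. Stat2 ranged from -0.55 to 0.46 over the alternatives. The cause of these shifts was not tested. The other 10 genes of the group that reached 5 FPKM in any library or had an unadjusted p under 0.05 kept their sign. When any 1 library was left out edgeR called 0 of all genes, and so 0 of the group.

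The shared replicate numbers are not said to pair the libraries. Deviations of same-numbered libraries from their group means had correlations of -0.0882 and -0.0884 across genes. With 2 wt libraries these deviations mirror each other, so the correlations cannot show whether the libraries are paired. With the replicate block edgeR called 0 of 13240 genes, and so 0 of the group, and 0 of 34 were higher and 5 lower at an unadjusted p under 0.05 (7.15% and 4.15% of all genes). Its median was -0.23, against 0.1 for all genes, and it moved Isg15 to -3.65 and Irf7 to -1.76. The precision was limited by 2 and 3 libraries and a biological coefficient of variation of 0.694, and for the 10 genes under 1 FPKM also by their counts, which were at or under the limit of 3 in at least 1 library for 7 of them.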

Other observations

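For 8 of the 38 genes more than 1 RefSeq transcript was listed, and the division of the counts between transcripts is an estimate of the counting program. In Samhd1 the transcript NM_018851 made up 44.4% and 49.3% of the gene's FPKM in wt and 66.1%, 86.1% and 70.6% in null. The other transcript, NM_001139520, had 3.70 and 2.80 FPKM in wt and 5.87, 3.49 and 6.62 in null, so null replicate 2 lay between the wt libraries for it. In Irf1, NM_008390 made up at least 94.0% in every library. In Irf9 the transcript NM_008394 held 66.8% and 36.2% in wt and 0.0%, 40.0% and 20.0% in null. In Irf7, NM_016850 held 77.0% and 53.1% in wt and 93.3%, 21.5% and 52.1% in null. The groups were apart for the shares of Samhd1 and overlapped for those of Irf7.

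Among all 5 libraries, in TMM-scaled CPM, null replicate 2 was the lowest for 14 of the 34 interferon-stimulated genes tested (41.2%), against 21.0% of all genes tested, and wt replicate 2 was the highest for 12 (35.3%), against 16.2%. In wt replicate 1 the same share of highest values was 5.88%, against 13.8%. In FPKM the order was another. Null replicate 2 was the lowest for 8 of the 34 (23.5%, against 14.5% of all genes), wt replicate 2 was the highest for 3 (8.82%, against 6.03%) and the lowest for 12 (35.3%, against 35.5%), and null replicate 3 was the highest for 13 (38.2%, against 27.7%).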
